A study of Mus musculus with 2 samples.

Results

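Neutrophils, the short-lived granulocytes that circulate in blood and enter inflamed tissue, were described here in single-cell RNA sequencing of mononuclear cells from the livers of control mice and of mice given MC38 tumor cells. A barcode counted as a neutrophil when it held at least 200 genes, at most 20% of its unique molecular identifiers (UMIs, each standing for 1 captured RNA molecule) in mitochondrial genes, at least 20 UMIs of S100a8 and S100a9 together and at least 3 of Csf3r, Retnlg and Cxcr2 together. It also had to hold no Csf1r, at most 2 UMIs of Ly6c2 and at most 1 of Cd3d, Cd3e and Cd3g together. These limits chose 266 of 25424 kept barcodes. Of these, 251 lay in the MC38 library (1.45% of 17338 kept barcodes, 95% exact binomial interval 1.28 to 1.64) and 15 in the control library (0.186% of 8086, 0.104 to 0.306).

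The mice were C57BL/6, and livers were taken on day 14. In the MC38 group, 500000 MC38 cells (a mouse colon adenocarcinoma line) were placed in the spleen, which was then taken out. The control group had received phosphate-buffered saline by the same route and is labelled as having no tumor. The protocol, worded alike for both groups, adds 3000000 MC38 cells under the skin, and the labels do not say whether the controls carried such a tumor or lost their spleens. Each group was 1 library of cells pooled from 3 mice, so no comparison between the groups has a replicate, no test was made, and every interval given below covers counting error only. The cells were the buffy layer of a Ficoll gradient, which enriches mononuclear cells, and the shares describe that layer and not all neutrophils of the liver.

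Neutrophils are made in the bone marrow, where they fill their granules in a fixed order. The azurophil granules with myeloperoxidase and elastase come at the promyelocyte stage, the specific granules with lactoferrin, lipocalin and cathelicidin at the myelocyte and metamyelocyte stages, and the gelatinase granules last. The messages of each stage fade as the next begins, and mature cells that meet a stimulus transcribe cytokine and chemokine genes such as Il1b and Cxcl2. In liver tumors, neutrophils are known both as killers of tumor cells and as cells that restrain T cells.

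The results below turn on those programs, and the RefSeq promoter windows of 2 specific granule genes and 2 inflammatory genes are shown for that reason. Each is the 250 bases before the RefSeq start, 5′ to 3′ on the gene's own strand, in build GRCm38.p6. Ngp encodes neutrophilic granule protein (chr9:110419558-110419807, plus strand), Lcn2 encodes lipocalin 2, which binds iron carriers of bacteria (chr2:32387740-32387989, minus strand), Cxcl2 encodes a chemokine that draws neutrophils (chr5:90903649-90903898, plus strand), and Il1b encodes interleukin 1 beta (chr2:129371140-129371389, minus strand). Capitals mark matches to a C/EBP motif (TTGCNNAA), an NF-kB motif of 10 letters (GGGA, any base, TT, any base, CC) or a PU.1 motif (GAGGAAG), searched on both strands.
Ngp: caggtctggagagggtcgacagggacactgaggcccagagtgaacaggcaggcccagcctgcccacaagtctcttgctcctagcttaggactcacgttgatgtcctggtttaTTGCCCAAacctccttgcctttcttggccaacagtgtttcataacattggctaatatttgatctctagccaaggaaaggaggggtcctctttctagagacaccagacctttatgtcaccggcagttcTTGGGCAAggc
Lcn2: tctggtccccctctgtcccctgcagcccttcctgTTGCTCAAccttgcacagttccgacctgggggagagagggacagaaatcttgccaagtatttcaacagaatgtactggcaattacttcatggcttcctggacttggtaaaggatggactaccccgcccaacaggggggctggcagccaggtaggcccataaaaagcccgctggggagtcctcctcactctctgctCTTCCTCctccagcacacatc
Cxcl2: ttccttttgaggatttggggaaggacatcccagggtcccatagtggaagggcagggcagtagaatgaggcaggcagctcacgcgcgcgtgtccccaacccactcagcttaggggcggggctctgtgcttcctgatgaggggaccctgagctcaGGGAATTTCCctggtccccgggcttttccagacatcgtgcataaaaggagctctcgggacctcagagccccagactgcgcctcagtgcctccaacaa
Il1b: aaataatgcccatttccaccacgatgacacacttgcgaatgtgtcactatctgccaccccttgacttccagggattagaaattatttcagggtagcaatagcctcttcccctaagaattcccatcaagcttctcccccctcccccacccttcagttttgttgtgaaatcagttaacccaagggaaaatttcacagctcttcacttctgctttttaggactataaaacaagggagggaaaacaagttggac
The Ngp window held 2 C/EBP matches, the Lcn2 window 1 C/EBP and 1 PU.1 match, the Cxcl2 window 1 NF-kB match and the Il1b window none of the 3. Of 32851 RefSeq promoter windows of the same length, 9.56% held the C/EBP motif, 0.98% the NF-kB motif and 10.6% the PU.1 motif. None of the matches capitalised above overlapped another, and a match is a description of the letters. In the GENCODE M21 annotation of GRCm38 the spans of Ngp (chr9:110419747-110423012) and Cxcl2 (chr5:90903871-90905938) begin inside these windows and that of Lcn2 (chr2:32384633-32388252) covers its whole window, while that of Il1b (chr2:129364570-129371139) ends next to it.

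The libraries held 14258 control and 19822 MC38 barcodes, of which 43.3% and 12.5% were removed by the limits on genes and mitochondrial UMIs, and 63 barcodes occurred in both libraries, none of them a neutrophil. The neutrophils had a median of 2210 UMIs (924 to 3623) and 895 genes in the control and 2087 UMIs (519 to 9052) and 878 genes in the MC38 library, with median mitochondrial shares of 12.8% and 6.37%. Their sums were 34396 and 596164 UMIs, so 1 control UMI is worth 29.1 CPM (a gene's UMIs per 1000000 UMIs of its group). RNA of other cells moved with the group. In MC38 neutrophils all 12 hepatocyte markers were found, at 4143 CPM in sum and 0 to 147 UMIs per cell, and all 6 erythroid markers, at 30643 CPM and 0 to 5300 UMIs per cell. In control neutrophils 4 of 12 hepatocyte markers (174 CPM) and 1 of 6 erythroid markers (87.2 CPM) were found. In B cells, a class that makes neither, the hepatocyte markers summed to 3153 CPM in the MC38 and 295 CPM in the control library, and the erythroid markers to 10367 and 3282 CPM. Of the MC38 neutrophils, 42 held enough RNA of another type to be set aside in an alternative chosen after the data were seen: 18 through hepatocyte, 11 through B cell, 7 through C1q macrophage, 4 through hemoglobin, 3 through monocyte and 2 through NK or T cell genes, some by more than 1 of these. Their median was 3449.5 UMIs, against 1921 in the other 209, and 23 of them were among the 25 MC38 neutrophils that scrublet called doublets. Of the control neutrophils, 1 of 15 was set aside. Values "without mixed cells" below come from the remaining 209 and 14.

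Identity was first checked against monocytes, the nearest myeloid cells of the blood. All 15 genes of a neutrophil identity list were at least 2-fold higher in MC38 neutrophils than in 1556 classical monocytes of the same library, and their intervals excluded no difference, which 12.1% of 11118 genes did in that direction and 24.1% in the other (14.8% and 31.4% without the condition on the interval). The monocytes were chosen by Csf1r, Ly6c2 and fewer than 20 UMIs of S100a8 and S100a9, and the neutrophils by S100a8, S100a9, Csf3r, Retnlg and Cxcr2, so for those genes the difference follows from the choice; the other 10 members were used in neither rule. Mmp9, the gelatinase of the last granules, stood at 1543 CPM in neutrophils and 0.270 in monocytes. Ly6g, the surface protein by which mouse neutrophils are sorted, stood at 171 and 0.0540 CPM, the monocyte value being 1 UMI (log2 ratio 11.63, 9.12 to 16.95). Hdc, which makes histamine, stood at 916 and 8.96 CPM, Clec4d, a lectin receptor, at 694 and 34.4, and Trem1, a receptor that amplifies inflammation, at 242 and 22.7. The defining markers outside the rule were thus present, with Ly6g seen in 23.5% of the cells at a median of 2087 UMIs and in 0.0958% of B cells at a median of 3014.

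Ranked by the end of the interval nearest no difference, the 15 leading genes over monocytes were Stfa2l1, Retnlg, S100a9, Asprv1, Mmp9, Ngp, Ly6g, Chil1, Mrgpra2b, G0s2, Ceacam10, Cxcr2, Hcar2, Dhrs9 and Il1f9, and all 15 were at least 2-fold higher without mixed cells too. Stfa2l1, of the stefin A protease inhibitors, had 426 UMIs in neutrophils and 0 in monocytes, at least 12.11 higher on the log2 scale against a floor of 3 UMIs. Asprv1, an aspartic protease, had 332 and 0 (at least 11.75). Hcar2, a receptor for hydroxybutyrate and niacin, stood at 195 and 0.594 CPM. Il1f9, an interleukin 1 relative also called IL-36 gamma, stood at 290.2 and 1.30. The stefin A genes on chromosome 16 and Mrgpra2b have close copies, between which the counting could split UMIs, so their single levels are uncertain.

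Markers of other granulocytes were few. Of 10 eosinophil, basophil and mast cell markers 3 were found, at 18.5 CPM in sum and at most 3 UMIs in a cell, and Epx, Prg2, Mcpt8, Cpa3 and Fcer1a were at 0. Of 14 monocyte and macrophage markers 13 were found, at 1328 CPM (0 to 52 UMIs per cell) beside 13741 in the monocytes and 1545 in B cells. In control neutrophils 6 of 14 were found, at 378 CPM. The list includes Csf1r and Ly6c2, which the rules for neutrophils and monocytes used, and the B cells were chosen without Csf1r. The absence of Csf1r and part of the distance from the monocytes thus follow from the choice. Lyz2, lysozyme, which monocytes carry more of, stood at 2684 CPM in MC38 neutrophils, 2122 in control neutrophils and 16296 in MC38 monocytes.

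In the MC38 library the limit on Csf1r kept out more barcodes by itself than any other limit on a gene. In the MC38 library 57 barcodes with 1 UMI of Csf1r and 30 with 2 or more met every other limit. Those 87 stood at 12206 CPM of Retnlg and 7030 of Lyz2, beside 22641 and 2684 in the members. A further 42 fell outside through Ly6c2 alone and 3 through the Cd3 genes alone. At the S100a8 and S100a9 limit, 11 members held 20 to 29 UMIs and 6 barcodes held 10 to 19 with every other limit met, while the members' median was 218 and their highest 2046. At the limit on Csf3r, Retnlg and Cxcr2, 3 members held 3 UMIs and 5 barcodes outside held 2. The limit on S100a8 and S100a9 alone kept out 74 MC38 barcodes, and that on Csf3r, Retnlg and Cxcr2 alone 13. In the control library the limit on S100a8 and S100a9 kept out the most by itself, 49 barcodes, while 9 fell outside through Csf1r alone, 3 through Ly6c2 alone, 1 through the Cd3 genes alone and none through Csf3r, Retnlg and Cxcr2 alone.

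Elane, Ctsg, Mpo and Prtn3, of the first granules, were near 0 in the MC38 neutrophils, and genes of the last granules ranged from none to most cells. Of the azurophil granule genes, Elane (neutrophil elastase) and Ctsg (cathepsin G) were at 0 of 596164 UMIs, a count that allows up to 5.03 CPM at 3 UMIs, Mpo (myeloperoxidase) had 1 UMI and Prtn3 (proteinase 3) 5. Srgn, the proteoglycan core that packs granule proteins and stays on in mature cells, stood at 3528 CPM. Of the specific granule genes, Lcn2 was seen in 86.5% of cells at 4365 CPM, Ngp in 19.1% at 564, and Camp, the cathelicidin, in 1.59% at 133. Of the 12 gelatinase and secretory granule genes, 11 had a UMI. Mmp9 was seen in 90.0% of cells, Mmp8, neutrophil collagenase, in 66.1% at 1622 CPM, Mmp25 in 3.98% and Alpl in none, and the other 8 were seen in 18.3% (Slc11a1) to 51.8% (Itgam). Cxcr2, the receptor by which neutrophils leave the marrow, was seen in 92.4% (the rule used it). In B cells, thinned to 1000 UMIs, Lcn2 was seen in 3.77%, and unthinned Ngp in 0.239%, Mmp8 in 1.01% and Mmp9 in 0.287%. Of 10 cell cycle genes 9 had a UMI, at 580 CPM in sum and 0 to 9 UMIs per cell. Among them Mki67 had 2 UMIs and Top2a 3 in the 251 cells. In control neutrophils 2 of the 10 had a UMI, at 1018 CPM in sum.

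**Figure D1:**
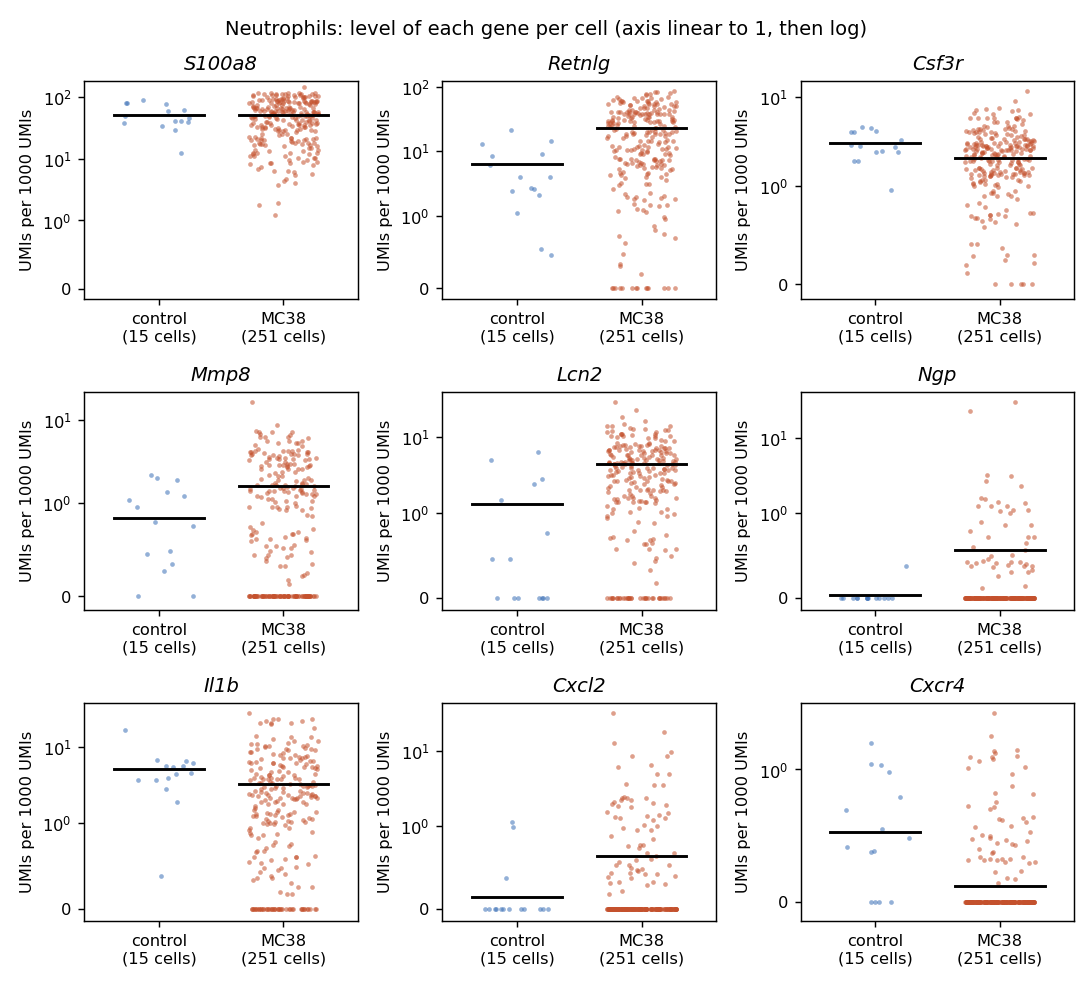
Level of 9 genes in each neutrophil, in UMIs per 1000 UMIs of the cell (axis linear to 1, then log), with 15 control and 251 MC38 cells as points and the summed level of the group as a line. For S100a8 the control cells lie within the MC38 span; Retnlg and Lcn2 reach higher in the MC38 library, and 2 MC38 cells stand apart in Ngp.

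The first comparison asked how neutrophils of the MC38 library differed from the 15 of the control library. Of 3437 genes with at least 20 UMIs over both, 124 (3.61%) were at least 2-fold higher and 155 (4.51%) at least 2-fold lower with an interval that excluded no difference, and these shares are the background for the counts of every list below. Without the condition on the interval the shares were 11.2% and 11.4%. The median log2 ratio over the 2868 genes with UMIs in both was -0.12.

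Some specific granule genes were higher in the MC38 library, Lcn2, Ngp and Chil3 among them. Of 12 members compared, 4 were higher by the rule with the interval (Lcn2, Ngp, Cd177 and Chil3) and none lower, and the list's median log2 ratio was 1.01 with 3 members set at a bound, beside 0.00 over all genes compared. Lcn2 stood at 1308 CPM (45 UMIs, 8 of 15 cells) in control neutrophils and 4365 CPM (2602 UMIs, 217 of 251 cells) in the MC38 library, a log2 ratio of 1.74 whose interval began at 1.31. Ngp had 1 UMI in control and 336 in MC38 cells (29.1 and 564 CPM, log2 4.28, 1.79 to 9.58). Chil3, a chitinase-like protein of late precursors and of monocytes, had 0 UMIs in control and 481 in MC38 cells, at least 3.21 higher on the log2 scale against a floor of 3 UMIs. B cells of the MC38 library held 133 CPM of Chil3 and 75.6 of Lcn2, against 6.22 and 0.777 in the control, levels that lay below those of the MC38 neutrophils. A single mixed cell of 9052 UMIs held 142 of the 481 Chil3 UMIs, and without mixed cells Chil3 was at least 2.89 higher. Camp and Ltf, lactoferrin, were at 0 in the control and rested on 2 cells of the MC38 library, described below. Without those 2 cells 3 of 10 members compared were higher (Lcn2, Ngp and Chil3): Ngp was then 2.79, 0.28 to 8.11, Lcn2 1.65, 1.23 to 2.11, and the interval of Cd177, which had 1 control UMI, included no difference (2.45, -0.07 to 7.76). Pglyrp1, a bactericidal protein, and Hp, haptoglobin, differed by less than 2-fold (0.34 and 0.71).

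Other granule and maturation genes went with them in part. Retnlg, a resistin-like secreted protein that the rule used, stood at 6309 and 22641 CPM (1.84, 1.65 to 2.04). Wfdc21, a protease inhibitor of the whey acidic protein family, stood at 611 and 1911 CPM (1.65, 1.03 to 2.34), and Mmp8 at 843 and 1622 CPM (0.94, 0.41 to 1.53), short of 2-fold. Stfa2l1 stood at 291 (10 UMIs in 3 cells) and 715 CPM (1.30, 0.40 to 2.37) and Asprv1 at 174 and 557 (1.67, 0.54 to 3.13). S100a8, the calprotectin subunit that the rule used, was level, at 52244 and 51991 CPM (-0.01, -0.08 to 0.06). Mmp9, the receptor gene Csf3r and the secreted inhibitor Slpi were lower in the MC38 library by less than 2-fold (-0.46, -0.55 and -0.65). Of the 16 genes of the maturation list, Retnlg and Ifitm1 were higher and none lower.

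Inflammatory cytokine genes split. Of 7 compared, Cxcl2 and Osm were higher and Il1rn, Ccl4 and Csf1 lower, and the list's median was -0.64. Cxcl2 stood at 145 CPM (5 UMIs in 3 cells) in control neutrophils and 636 CPM (379 UMIs in 71 cells) in the MC38 library (2.13, 0.89 to 3.76). Osm, oncostatin M, had 1 UMI and 160 (3.21, 0.71 to 8.52). Il1b was seen in all 15 control cells, at 5029.6 CPM and 1 to 33 UMIs (median 10), and in 82.5% of MC38 cells, at 3236 CPM and 0 to 60 UMIs (median 4). Its log2 ratio was -0.64, -0.86 to -0.40, short of 2-fold, and the cells of the groups overlapped. Csf1, the growth factor of macrophages, stood at 465 CPM (16 UMIs in 7 cells) and 52.0 CPM (31 UMIs in 25 cells), -3.16, -4.08 to -2.19. All 6 control UMIs of Ccl4 lay in 1 cell, and Il1rn, the natural blocker of the interleukin 1 receptor, had 10 UMIs in 4 control cells (-1.19, -2.15 to -0.07). Of 9 NF-kB feedback genes, Nfkbia and Ier3 were higher: Ier3, an early response gene, stood at 116 and 959 CPM (3.04, 1.68 to 4.93).

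Receptors differed in both directions, and adhesion molecules were lower where they differed. Of 22 receptors compared, 4 were lower (Cxcr4, C5ar1, Tnfrsf1a and Ptafr) and 3 higher (Il1r2, Trem1 and Fcgr3). Cxcr4, which holds neutrophils in the marrow and returns on aged cells, stood at 523 CPM (18 UMIs in 11 of 15 cells) and 119 CPM (71 UMIs in 56 of 251 cells), -2.14, -2.90 to -1.30. C5ar1, the receptor of complement C5a, stood at 523 and 257 CPM (-1.03, -1.74 to -0.24), and Il1r2, the interleukin 1 decoy receptor, at 319.8 and 669 (1.07, 0.21 to 2.08). Of 8 adhesion genes, Cd9, Cd44 and Itgb2 were lower and none higher, with a list median of -1.03. Cd9, a tetraspanin, stood at 988 and 243 CPM (-2.02, -2.57 to -1.44), Cd44, the hyaluronan receptor, at 1948 and 798 (-1.29, -1.66 to -0.90), and Itgb2, the shared chain of the leukocyte integrins, at 756 and 248 (-1.61, -2.21 to -0.95). Without mixed cells these were -1.89, -1.05 and -1.30.

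Genes linked to myeloid-derived suppressor cells, a name for neutrophils and monocytes of tumor-bearing hosts that restrain T cells, differed in part. Of 12 compared, Wfdc17, Ifitm1, Il1r2 and Arg1 were higher and Ptgs2 lower. Wfdc17, also called activated macrophage WAP protein, stood at 1105 and 3757 CPM (1.77, 1.30 to 2.27) and Ifitm1, an interferon-induced membrane protein, at 1425 and 3994 (1.49, 1.08 to 1.93). Arg1, arginase of myeloid cells and also of hepatocytes, had 0 UMIs in control and 155 in MC38 cells (260 CPM). B cells of the MC38 library held 219 CPM, against 2.33 in the control. A UMI was seen in 23.9% of MC38 neutrophils and 26.5% of MC38 B cells, at medians of 2087 and 3014 UMIs. The part of free RNA in the Arg1 ratio was not tested, and that ratio is read no further. Arg2, the mitochondrial arginase, stood at 319.8 and 260 CPM (-0.30, -1.18 to 0.73), with 0.0958% of B cells holding a UMI. Ptgs2, cyclooxygenase 2, had 5 control UMIs and 22 in the MC38 library, and without mixed cells its interval included no difference (-1.64, -3.08 to 0.13).

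Interferon and immediate-early genes completed the lists. Of 9 interferon response genes compared, 1 (Slfn4) was lower with an interval excluding no difference and none higher: Slfn4 stood at 262 and 112 CPM (-1.22, -2.23 to -0.03). The control values were unevenly spread over cells. The list of 16 summed to 1744 CPM in control neutrophils, with 0 to 33 UMIs per cell and a median of 1. In MC38 neutrophils it summed to 1178 CPM, with 0 to 36 UMIs per cell and a median of 2. Isg15, a ubiquitin-like protein, had 5 UMIs in 3 control cells and 46 in the MC38 library (-0.91, -2.24 to 0.78), and Oasl2 stood at 407 and 535 CPM (0.39, -0.37 to 1.28). In classical monocytes of the same libraries 15 of 16 of these genes were at least 2-fold lower in the MC38 library with an interval excluding no difference, as were 6.95% of all 11609 genes compared there. None of 8 immediate-early genes passed 2-fold, and their median was -0.58, with Fos, a gene that also responds to tissue handling, at 1279 and 709.5 CPM (-0.85, -1.30 to -0.37).

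**Figure D2:**
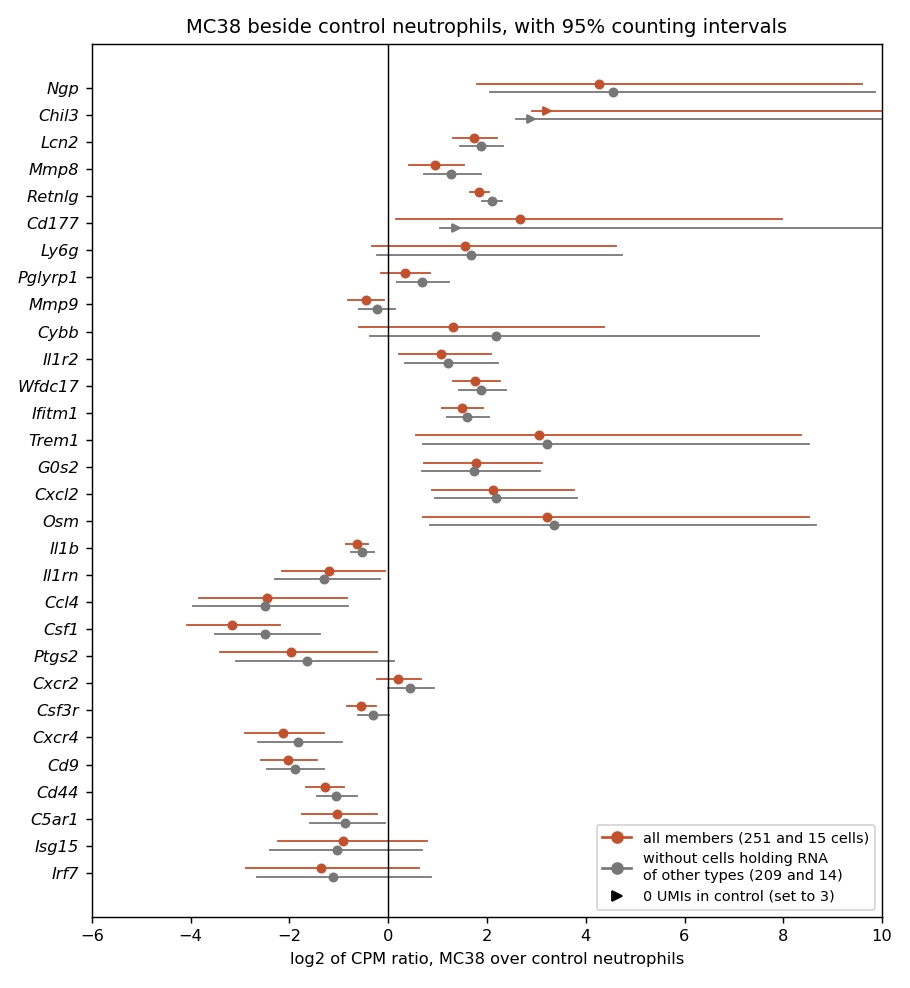
Log2 ratio of CPM in MC38 over control neutrophils for 30 genes, with 95% counting intervals, for all members (251 and 15 cells) and without cells holding RNA of other types (209 and 14); an interval that leaves the plot has no upper limit. Chil3, at 0 UMIs in the control, is a bound, as is Cd177 without such cells; Ngp, Lcn2 and Retnlg lie on the higher side and Csf1, Cxcr4, Cd9 and Cd44 on the lower side.

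Ranked over all genes, the 10 leading on the higher side included Mt1, Chil3, Cyb5a, Mat1a, Prdx1, Dbi, Ngp, Mt2 and Plin2. Of these, Mat1a (methionine adenosyltransferase) is a gene of hepatocytes, and MC38 B cells held 327 CPM of it beside 423 in the neutrophils. A UMI of Mt1 was seen in 74.5% of MC38 neutrophils and 73.6% of MC38 B cells, at medians of 2087 and 3014 UMIs. Mt1 and Mt2, metallothioneins, were at 0 in the control neutrophils and at 1253 and 371 CPM in the MC38 neutrophils, with 939 and 235 CPM in MC38 B cells. Plin2, which coats lipid droplets, stood at 29.1 CPM (1 UMI) and 542 CPM (4.22, 1.73 to 9.53), with 184 CPM in MC38 B cells and 3.92, 1.43 to 9.23 without mixed cells. The part of free RNA in these ratios was not tested.

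On the lower side the leading genes were Csf1, Tmem164, Cd9, Kif23, Rilpl2, Cxcr4, Mpeg1, Fam193a, Pqlc3 and Metrnl, each with 7 to 34 control UMIs, and all 10 stayed at least 2-fold lower without mixed cells. Mpeg1, perforin 2, which forms pores in engulfed bacteria, stood at 639.6 (22 UMIs in 10 cells) and 159 CPM (-2.00, -2.69 to -1.26). Metrnl, a secreted meteorin relative, stood at 349 and 77.2 CPM (-2.18, -3.12 to -1.12). Mitochondrial shares differed between the groups too, and of the 15 control cells 9 had over 10% mitochondrial UMIs, against 72 of the 251. A limit of 10% was among the alternatives recomputed for this comparison. Whether the mitochondrial shares were a cause of these ratios was not tested.

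Within the MC38 library the cells spanned a range of granule gene content. The share of a cell's UMIs in 9 specific granule genes (Ltf, Lcn2, Camp, Ngp, Cd177, Chil3, Fcnb, Itgb2l and Pglyrp1) ran from 0 to 6.62% with a median of 0.566%. The 83 cells with the highest share, from 0.764%, were set beside the 83 with the lowest, up to 0.368%; 31 and 14 cells lay within 10% of those limits, so these are ends of a range and not types. Genes of the share had to differ and are left out of what follows. Of all 2528 genes compared, those of the share included, 4.15% were at least 2-fold higher in the granule-rich cells and 10.6% lower, with an interval excluding no difference (5.18% and 13.4% without that condition).

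Some genes of neutrophil identity were higher in the granule-rich cells. Of 14 identity genes outside the share, S100a8, S100a9, Retnlg, Ly6g, Mmp8, G0s2 and Fpr1 were higher and none lower. The rule that chose the cells used S100a8, S100a9 and Retnlg. It also used Csf3r and Cxcr2, which differed by less than 2-fold here. Mmp8 stood at 2791 CPM in them and 553 in the granule-poor cells (2.34, 2.05 to 2.63), Retnlg at 35814 and 9369.9 (1.93, 1.86 to 2.01) and S100a8 at 79730.5 and 25045 (1.67, 1.63 to 1.72). Ifitm6, a membrane protein of the interferon-induced family, Lyz2 and Ly6g were higher as well, at 2.41, 2.34 and 2.56. The granule-poor cells held more RNA of other types, with 26 mixed cells of 83 against 5, and all 4 B cell markers compared, 10 of 11 hepatocyte and all 5 erythroid markers were lower in the granule-rich cells. The 10 leading genes on the lower side included Cd74, Ptprcap, Bank1, Prdx2, Glul, Ebf1, Chchd10, H2-Aa and Ptma, of which Cd74, Bank1, Ebf1 and H2-Aa are genes of B cells. When the mixed cells were left out and the ends drawn again, 5 of those 10 kept an interval below no difference, and 9 of the 10 leading on the higher side kept one above it.

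Without mixed cells the ratios of Mmp8, Retnlg, Lyz2 and Ly6g were smaller, and those of Csf3r, Il1b and Cxcr4 lay further to the lower side. Mmp8 was then 1.54, 1.24 to 1.83, Retnlg 1.38, 1.30 to 1.46, Lyz2 1.55, 1.31 to 1.79 and Ly6g 1.97, 0.98 to 3.12. Csf3r, the receptor of granulocyte colony-stimulating factor, was 0.09 with all cells and -0.53 without mixed cells (-0.76 to -0.31). Il1b was -0.29 and -0.70, -0.90 to -0.51, and Cxcr4 -0.27 and -1.29, -2.39 to -0.26. Csf1 was -3.07, -5.47 to -1.30. Of 6 interferon genes compared with all cells, Isg15 and Oasl2 were lower in the granule-rich cells, at -1.35, -2.84 to -0.04 and -1.27, -1.72 to -0.84, and Oasl2 was -1.61, -2.10 to -1.13 without mixed cells. Mitochondrial shares had medians of 4.29% in the granule-rich and 8.22% in the granule-poor cells.

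At the far end stood 2 cells. They held 77 of the 79 Camp UMIs, all 42 Ltf UMIs and 218 of the 336 Ngp UMIs of the MC38 neutrophils. The first had 6755 UMIs, with 62 of Camp, 35 of Ltf, 149 of Ngp, 150 of Lcn2 and 48 of Mmp8. The second had 2342 UMIs, with 15 of Camp, 7 of Ltf, 69 of Ngp, 42 of Lcn2 and 116 of Retnlg. Neither held a UMI of Il1b, Mki67 or Mpo, neither was a doublet call or a mixed cell, and they held 5 and 1 UMIs of Cxcr2. Camp (chr9:109847379-109849617), Ngp (chr9:110419747-110423012) and Ltf (chr9:111019271-111042767) lie on chromosome 9 in the GENCODE M21 annotation of GRCm38. In the other 249 cells Ltf was at 0, Camp had 1 UMI in each of 2 cells, and Ngp was seen in 46 cells with at most 11 UMIs (201 CPM). These 2 cells were singled out after their values were seen.

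**Figure D3:**
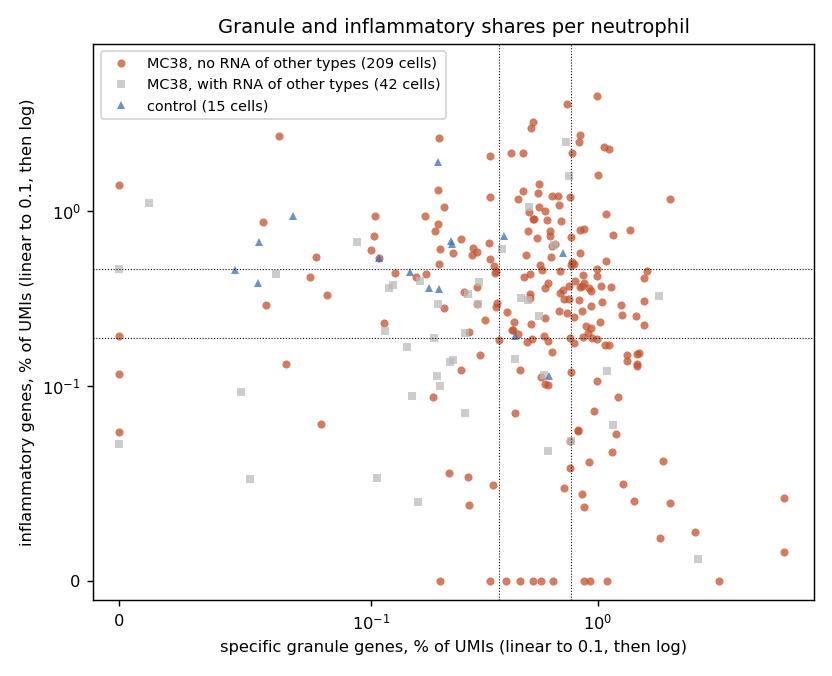
Share of each neutrophil's UMIs in 9 specific granule genes (x) and 12 inflammatory genes (y), in percent, both axes linear to 0.1 and then log; dotted lines mark the limits of the outer 83 MC38 cells on each axis. Control cells (triangles) lie below the upper granule limit, and the 2 MC38 cells farthest right carry nearly all Camp and Ltf.

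A second range was that of inflammatory genes. The share of UMIs in 12 genes (Il1b, Il1a, Tnf, Ccl3, Ccl4, Cxcl2, Cxcl3, Nfkbia, Nfkbiz, Tnfaip3, Icam1 and Ptgs2) ran from 0 to 4.55% with a median of 0.312%, and the outer 83 cells lay from 0.465% and up to 0.189%, with 20 and 19 cells within 10% of those limits. Il1b gave most of it: it had 1929 UMIs, Cxcl2 379 and Nfkbia 230, while Tnf had 3, Cxcl3 1 and Il1a none. Of all 2482 genes compared, those of the share included, 4.59% were at least 2-fold higher and 3.46% lower in the inflammatory-rich cells with an interval excluding no difference (6.24% and 5.28% without that condition). Mixed cells were 8 of 83 at the rich and 19 of 83 at the poor end, and the median UMIs were 1850 and 2415. All 4 B cell and both NK cell markers compared were lower at the rich end, and none of 11 hepatocyte markers differed by the rule. Of 5 erythroid markers, 2 (Hba-a2 and Hbb-bt) were higher at the rich end, with a list median of 0.93. The part of such RNA in the differences between the ends was not tested.

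Immediate-early and NF-kB feedback genes were among those higher in the inflammatory-rich cells. G0s2, an inhibitor of fat breakdown, stood at 1747 CPM in them and 300.2 in the inflammatory-poor cells (2.54, 2.16 to 2.94), Osm at 544 and 109.9 (2.31) and Cd14, the co-receptor for lipopolysaccharide, at 484 and 106 (2.19, 1.53 to 2.90). The other leading genes were Egr1, Csrnp1, Hcar2, Irg1, Ets2, Ier3 and Rhob, from 1.59 to 2.75, and all 10 stayed at least 2-fold higher without mixed cells. Irg1, also called Acod1, makes itaconate and stood at 163 and 25.4 CPM. Of 8 immediate-early genes 5 were higher (Jun, Junb, Egr1, Ier2 and Dusp1) and none lower, and Cxcr4 and Pim1, a survival kinase, were higher at 1.88, 0.95 to 2.88 and 1.39, 1.03 to 1.76. Of 7 NF-kB feedback genes outside the share, Tnfaip2, Zfp36 and Ier3 were higher and none lower, and of 22 receptors Cxcr4, Tlr2, Trem1, Ptafr and Clec4e were higher and none lower. Of 6 interferon genes, Oasl2 and Gbp2 were higher and none lower, Oasl2 at 701 and 326 CPM (1.11, 0.68 to 1.54).

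Several granule genes were lower at that end. Of 12 specific granule genes compared, 6 were lower (Ltf, Camp, Ngp, Cd177, Chil3 and Cybb) and none higher. The list's median was -1.07, with 2 members set at a bound, beside 0.05 over all genes. Over the members with UMIs at both ends the median was -0.65. The count and the median rested in part on the 2 cells rich in Camp and Ltf, both at the poor end. Without them 3 of 10 were lower (Cd177, Chil3 and Cybb), the median was -0.58, and Ngp was -0.89, -1.62 to -0.20 in place of -2.97. Without the cell richest in Chil3 too, 2 of 10 were lower, the median was -0.49, and Chil3 was -0.45, -0.86 to -0.06. Cybb, the catalytic chain of the NADPH oxidase, stood at 30.2 CPM in the inflammatory-rich and 190.3 in the inflammatory-poor cells (-2.65, -4.34 to -1.33), Ifitm6 at 218 and 959.8 (-2.14, -2.69 to -1.63) and Lyz2 at 1330.2 and 3662 (-1.46, -1.68 to -1.25). Without mixed cells these were -2.44, -2.35 and -1.54. Ccl5 led the lower side next to Ngp with all cells, but without mixed cells its interval included no difference. Csf3r and Cxcr2 differed by less than 2-fold between the ends (0.41 and 0.28).

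**Figure D4:**
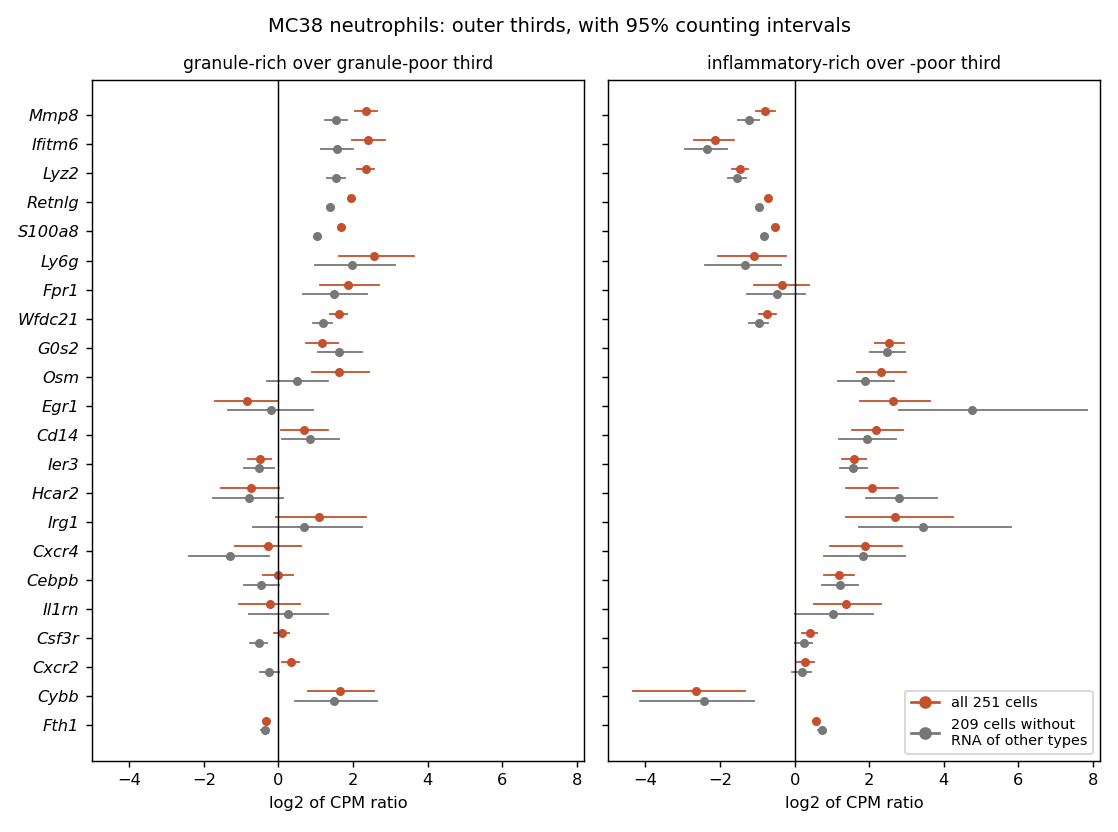
Log2 ratio of CPM between the outer 83 cells by granule share (left) and by inflammatory share (right) for 22 genes outside both shares, with 95% counting intervals, for all 251 MC38 neutrophils and for the 209 without RNA of other types. Mmp8, Ifitm6, Lyz2 and Retnlg lie on the higher side at left and on the lower side at right, and G0s2, Osm, Cd14 and Cxcr4 lie on the higher side at right. With all 251 cells G0s2 and Osm were at least 2-fold higher at left too.

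Cells at the ends of one range fell on all parts of the other. Of the 83 granule-rich cells, 18 were also inflammatory-rich and 36 inflammatory-poor; of the 83 granule-poor cells, 29 were inflammatory-rich and 25 inflammatory-poor. Spearman's rho between the shares was -0.14 over 251 cells of 1 library, which share their free RNA and have a common total in each cell. On the MC38 limits, 0 of the 15 control cells were granule-rich and 11 granule-poor, while 8 were inflammatory-rich and 1 inflammatory-poor. Over the summed UMIs, the granule genes took 0.244% in control and 0.750% in MC38 neutrophils, and the inflammatory genes 0.587% and 0.455%.

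Pairs of genes were also compared over single cells. Over 197 MC38 neutrophils without mixed cells, each thinned to 1000 UMIs, rho was 0.92 for S100a8 and S100a9, which encode the subunits of calprotectin, 0.64 for S100a8 and Retnlg, 0.57 for Retnlg and Mmp8 and 0.56 for S100a8 and Lcn2. It was -0.36 for S100a8 and Il1b and -0.37 for S100a8 and Fth1, ferritin heavy chain. S100a8 and S100a9 take a large part of a cell's UMIs, so a high value leaves fewer of the 1000 for the others, and the negative values are read no further. Cxcl2 went with G0s2 (0.27) and Osm (0.21) and hardly with Il1b (0.07), and Chil3 was near 0 with S100a8, Retnlg and Il1b.

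**Figure D5:**
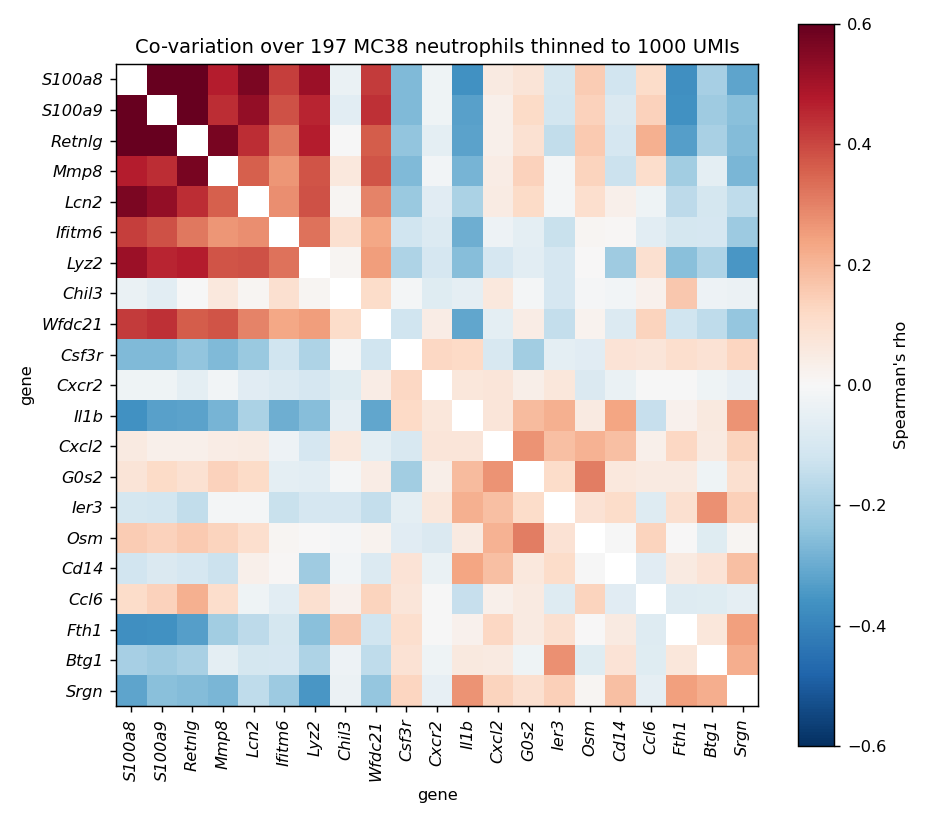
Spearman's rho between 21 genes over 197 MC38 neutrophils thinned to 1000 UMIs, without cells holding RNA of other types; colors end at 0.6 in size, so S100a8 with S100a9 (0.92) and with Retnlg (0.64) are shown at the end of the scale. S100a8, S100a9, Retnlg, Mmp8, Lcn2 and Lyz2 form a block of positive values, and Il1b is negative with each of them.

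Genes reported on aged or tissue neutrophils were low. Siglecf, found on neutrophils of some tumors and otherwise on eosinophils, had 8 UMIs in 7 of 251 cells (2.79%, 1.13 to 5.66) and was seen in 0.192% of B cells. Cd274, the ligand of PD-1, was seen in 3.59% of neutrophils and 6.94% of B cells, at medians of 2087 and 3014 UMIs. Beside classical monocytes, 4 of the 13 genes of this list were at least 2-fold higher in neutrophils, Cd274 among them, and 4 lower. Their intervals excluded no difference, as did those of 12.1% and 24.1% of all genes compared there. The part of free RNA in the Cd274 UMIs was not tested. Cxcr4 was seen in 22.3% and, with cells thinned to 1000 UMIs, in 11.7%; B cells make it too. Icam1 had 5 UMIs and Tnf 3. By contrast Il1b, at 71.1% of thinned neutrophils and 0.531% of thinned B cells, and Cxcl2, at 21.8% and 0.290%, lay above the B cell shares after thinning. Arg2 was seen in 39.0% of unthinned neutrophils and 0.0958% of B cells. Thinning left out 12 of 251 neutrophils and 18 of 2088 B cells.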

How the data were processed

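Each library is a matrix of UMI counts per gene and barcode as deposited by the authors. Per the submitters' processing notes the tools were R 3.6.0, Seurat 2.3.4, STAR, Cell Ranger 2.2 and bcl2fastq, and the build GRCm38.p6, while the header of the matrices names software version 3.0.2. Those sources do not say which tool made which step, nor how the deposited barcodes were filtered. A filtered matrix still holds free RNA and doublets, which add other cells' genes to a barcode.

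From these counts, barcodes and neutrophils were chosen by the limits stated in the opening. The members, gene lists and rules were chosen with earlier results of these data known, and the neutrophils by their own values, so none of the counts is independent support. The monocytes were barcodes with at least 3 UMIs of Ly6c2, at least 1 of Csf1r, at most 2 of the C1q genes and fewer than 20 of S100a8 and S100a9, and B cells held at least 3 UMIs of B cell markers. UMIs were summed per group and given as CPM. Ratios of genes with at least 20 UMIs over both groups carry an exact conditional Poisson interval, and shares a Clopper-Pearson interval, both at 95%. A gene at 0 was set at 3 UMIs. Scores of doublets came from scrublet in scanpy 1.11.5, run on each library at an expected 0.008 per 1000 barcodes, which called 617 of 14145 scored control barcodes (4.36%) and 1727 of 19567 MC38 barcodes (8.83%); calls were kept in the main values. Python 3.11.15, numpy 2.4.6, scipy 1.17.1, pandas 2.3.3 and matplotlib 3.10.9 were used, and the calculation of ratios was tested on simulated data.

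Named genes are members of the gene lists and, per comparison, genes ranked by the end of the interval nearest no difference among those at 50 CPM or more and in 10% or more of the cells of the higher group: 15 over monocytes and 10 each way elsewhere; some of them are not reported here. Ribosomal, mitochondrial, hemoglobin, antigen receptor and unnamed-model genes and markers of other cell types stayed out of the ranking, and outside the monocyte comparison a gene had to reach 10% of its highest CPM among the reference classes. The gene listed as Jaml was matched by gene ID to Amica1. All 343 gene IDs matched GENCODE M21 on GRCm38, and promoter windows came from RefSeq. Alternatives covered the mitochondrial and gene limits, the marker limits, doublet calls, the weighting of cells, the UMI minimum, the scaling, thinning, smaller outer groups in place of the 83 cells and the genes of each share.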

Additional observations from a re-analysis of the deposited data

How the results depend on the processing

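Of 110 shares and counts recomputed under an alternative, 87 stayed within counting error, or within 1.5 times for a count. Such values have no direction that could reverse. Of 310 values of single genes, 237 stayed within counting error. None whose main interval excluded no difference changed direction. These genes were a selection made for each comparison and not every named gene. Bank1 and Ccl5, whose intervals included no difference without mixed cells, were outside that selection. The MC38 share of 1.45% was 1.73% with no mitochondrial limit, 1.78% with up to 1 UMI of Csf1r and 1.21% without mixed cells. The counts of genes at least 2-fold apart, whatever their interval, moved as follows. Between the libraries, 384 higher became 187 at a mitochondrial limit of 10%, and 391 lower became 144 at a minimum of 50 UMIs, which tests fewer genes. For granule-rich cells, 131 higher became 54 after thinning and 59 without mixed cells, and 338 lower became 147 after thinning, 125 without doublet calls and 183 without mixed cells. For inflammatory-rich cells, 155 higher became 86 after thinning and 93 with Il1b left out of the share, and 131 lower became 52 after thinning, 79 without doublet calls and 60 without mixed cells. Thinning to 1000 UMIs lowered the share of neutrophils with a UMI from 82.5% to 71.1% for Il1b, 28.3% to 21.8% for Cxcl2, 66.1% to 55.6% for Mmp8, 19.1% to 12.6% for Ngp, 22.3% to 11.7% for Cxcr4, 39.0% to 22.6% for Arg2, 2.79% to 0.837% for Siglecf and 23.5% to 15.1% for Ly6g, and thinning itself removes UMIs; for the other moved values the cause was not tested.

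The alternatives without mixed cells, without the 2 cells rich in Camp, Ltf and Ngp and without the cell richest in Chil3 were chosen after seeing the data. No paired analysis was possible because each group is 1 library, and for the same reason no replicate could be left out. The 15 control cells limit every comparison between the libraries: 1 UMI there is worth 29.1 CPM, so most genes below that level could not be compared. Intervals cover counting error and say nothing of the spread between mice, which were pooled.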

Other observations

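Few survival, energy and oxidase genes passed 2-fold with their interval. Of 10 survival and death genes compared between the libraries' neutrophils, none was at least 2-fold higher or lower with an interval excluding no difference, and Mcl1, the survival factor on which neutrophils depend, stood at 2588 and 2231 CPM in control and MC38 cells (-0.21, -0.52 to 0.11). Within the MC38 library Pim1, Fas and Bcl2a1b were higher in the inflammatory-rich cells, Pim1 at 1.39 and Fas at 1.36; Bcl2a1b has close copies between which UMIs could be split. Of 10 glycolysis and hypoxia genes compared between the libraries, Ldha, lactate dehydrogenase A, was higher, at 87.2 CPM (3 UMIs) and 401 CPM (interval of the log2 ratio 0.64 to 4.49), with 133 and 296 CPM in B cells and a UMI in 46.2% of MC38 neutrophils and 46.6% of MC38 B cells, and Ndrg1, a stress response gene, was lower, at 204 (7 UMIs) and 45.3 CPM (-2.17, -3.40 to -0.72). Slc2a3, the glucose transporter GLUT3, stood at 273 CPM in MC38 neutrophils and 2.27 in MC38 monocytes. Of the 6 NADPH oxidase genes none passed with its interval between the libraries.

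Transcription factor genes gave few differences. Cebpe, the C/EBP factor of the specific granule stage, had 11 UMIs in 11 of 251 MC38 neutrophils and 3 UMIs in 2 of 15 control neutrophils. That is under the minimum of 20 UMIs over both groups, so Cebpe was not among the genes compared between the libraries. Cebpb, the C/EBP factor of stimulated cells, stood at 816 CPM in inflammatory-rich and 359 in inflammatory-poor cells (1.18, 0.78 to 1.59). Spi1, which encodes PU.1, stood at 1047 and 973 CPM between the libraries (-0.11, -0.59 to 0.42).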
